A study of Pinus tabuliformis with 21 samples.

Results

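The 100 gene models described here were those of Pinus tabuliformis foliage that stood higher under UV-B than in the unirradiated control at all of 1, 3 and 7 d while staying near or under the control level in UV-C. They were chosen from 84525 gene models by their measured values. Counts were scaled to a common library total to give CPM (the count divided by the library total, times a fixed factor, so that 1 CPM is 6.18 to 8.56 counts here), and for each group the log2 of the mean CPM of its 3 libraries plus 1 was taken. The difference D of a group is that value minus the value of the control, so a fold change in D understates the change of a low gene. Among the 77653 gene models with D below 0.5 in all 3 UV-C groups, the members are the 100 with the largest smallest D over the 3 UV-B groups, and they are ranked by that value. Every contrast of UV-B or UV-C with the control, and of UV-B with UV-C, was therefore used in choosing them and is given as a description without a test. The steps between durations within a band were not part of the rule, and these were tested. The rule did use the mean of every group in them, though. Its minimum over UV-B favours members that stay high at all 3 durations, and its ceiling caps a rise within UV-C. Counts of members called in a step, and the steps of their summed share, are therefore not independent of the choice.

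All seedlings were 2.5 years old and grew under fluorescent lamps. The UV-B groups received UV-B of 280 to 320 nm (peak at 306 nm) at 280 µW/cm2 for 1, 3 or 7 d on top of those lamps. The UV-C groups received UV-C of 230 to 270 nm (peak at 254 nm) at 28 µW/cm2 for the same durations. The control received neither band and was sampled at 0 h only, so each contrast with it also spans the time of the experiment, and the bands differ in intensity as well as in wavelength. Each of the 7 groups has 3 libraries, whose totals ran between 6177212 and 8560163 counts. The labels do not say whether the libraries of a group came from separate seedlings, so p-values measure the spread between these libraries, which may be technical. The deposited table gives identifiers without gene names, so the labelled tissue could not be set against its markers and the roles of the members are not given. Members are called by rank, and 4 identifiers are printed.

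UV-B is largely absorbed by ozone, and what passes is a small part of the ultraviolet light in sunlight at the ground. In Arabidopsis it is perceived by the photoreceptor UVR8, which on absorbing it acts through the E3 ligase component COP1 and the transcription factor HY5 and raises genes of flavonoid synthesis, whose products screen out ultraviolet light. UV-C is absorbed by the atmosphere, reaches plants from lamps, and is absorbed strongly by DNA, where it forms dimers of neighbouring pyrimidines. A set of genes higher under one band than under the other is where pathways of this kind would be looked for, but which members belong to them cannot be read from these identifiers.

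At least 1 count was found for 39403 gene models. Of these, 1487 stood at least as high over the control in all 3 UV-B groups as the last member did, with a smallest D of 0.796. The UV-C ceiling left out 1387 of them, and the members are the remaining 6.72%. Of the 1387, 795 were at or over the ceiling in all 3 UV-C groups, 414 in 2 of them and 178 in 1 of them. The ceiling was reached by 1031 at UV-C 1 d, by 1299 at UV-C 3 d and by 1061 at UV-C 7 d. Gene models high under UV-B alone were thus a small part of those high under UV-B at these thresholds. The same rule with the bands exchanged gave smaller values. Its largest smallest D was 2.03 and its 100th was 0.54, against 3.13 and 0.80 for the members, and 33 gene models high in UV-C alone reached the value of the last member.

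**Figure D1:**
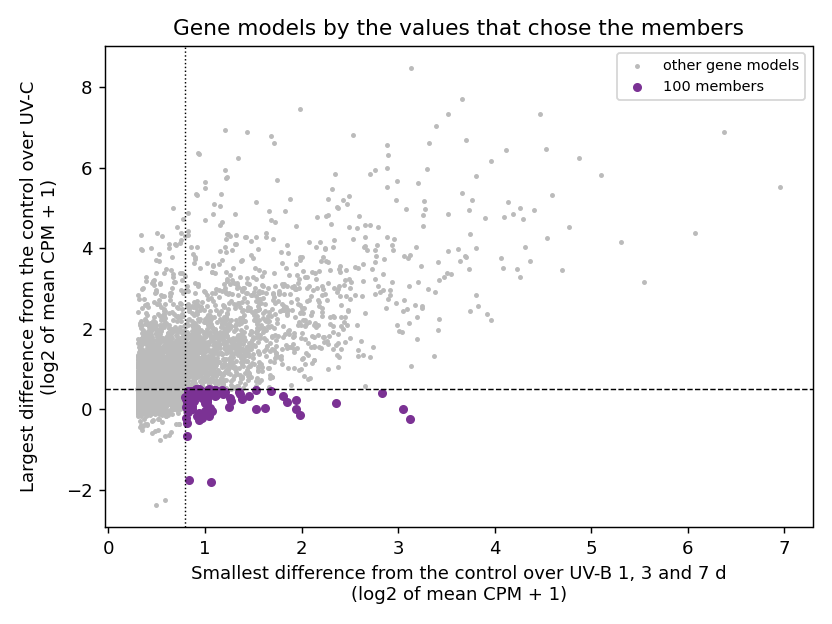
Gene models by the values that chose the members: the smallest D over the 3 UV-B groups on the x axis and the largest D over the 3 UV-C groups on the y axis, both as differences of log2(mean CPM + 1) from the control. The dashed line is the UV-C ceiling of 0.5 and the dotted line the last member's 0.796; the 100 members fill the corner under the ceiling, and most gene models to the right of the dotted line lie above it.

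The ends of the list are not set apart from their neighbours. Rank 99 had a smallest D of 0.80 and rank 100 of 0.796, and the first 2 gene models left out by rank had 0.7905 and 0.7901. At the ceiling, the members of ranks 63 and 60 had a largest UV-C D of 0.495 and 0.493, and the nearest gene models left out had 0.502 and 0.507. The largest UV-C D was at least 0.25 in 56 members and at least 0.4 in 29. "Only" therefore means under this ceiling: 40 members were above the control in all 3 UV-C groups, and 17 were below it in all 3.

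Over the members, the median D at 1, 3 and 7 d of UV-B was 1.20, 1.34 and 1.08, and for UV-C of the same durations 0.01, 0.15 and 0.02. The median of the members' mean levels was 5.39, 6.37 and 5.72 CPM at UV-B 1, 3 and 7 d, 1.17, 1.34 and 1.29 CPM at UV-C 1, 3 and 7 d, and 1.62 CPM in the control. UV-B 3 d held the highest UV-B mean of 41 members, UV-B 1 d that of 38 and UV-B 7 d that of 21. Most members were low in unirradiated foliage: 45 were under 1 CPM in the control, 36 between 1 and 10 CPM, and 19 at 10 CPM or more. The share of all gene models at these levels was not counted, so this is not a trait set against them. A single control library detected 70 to 74 members, and 23889 to 24044 of the 39403 gene models with a count. In the control, 18 members had 0 counts, all sharing the lowest control level of the list, and 12 had 1 to 3 counts. Of the 18, 7 also had 0 counts in all 9 UV-C libraries (ranks 2, 6, 13, 43, 77, 78 and 80). A count of 0 over the 3 control libraries allows up to 3 counts, which is 0.13 CPM.

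**Figure D2:**
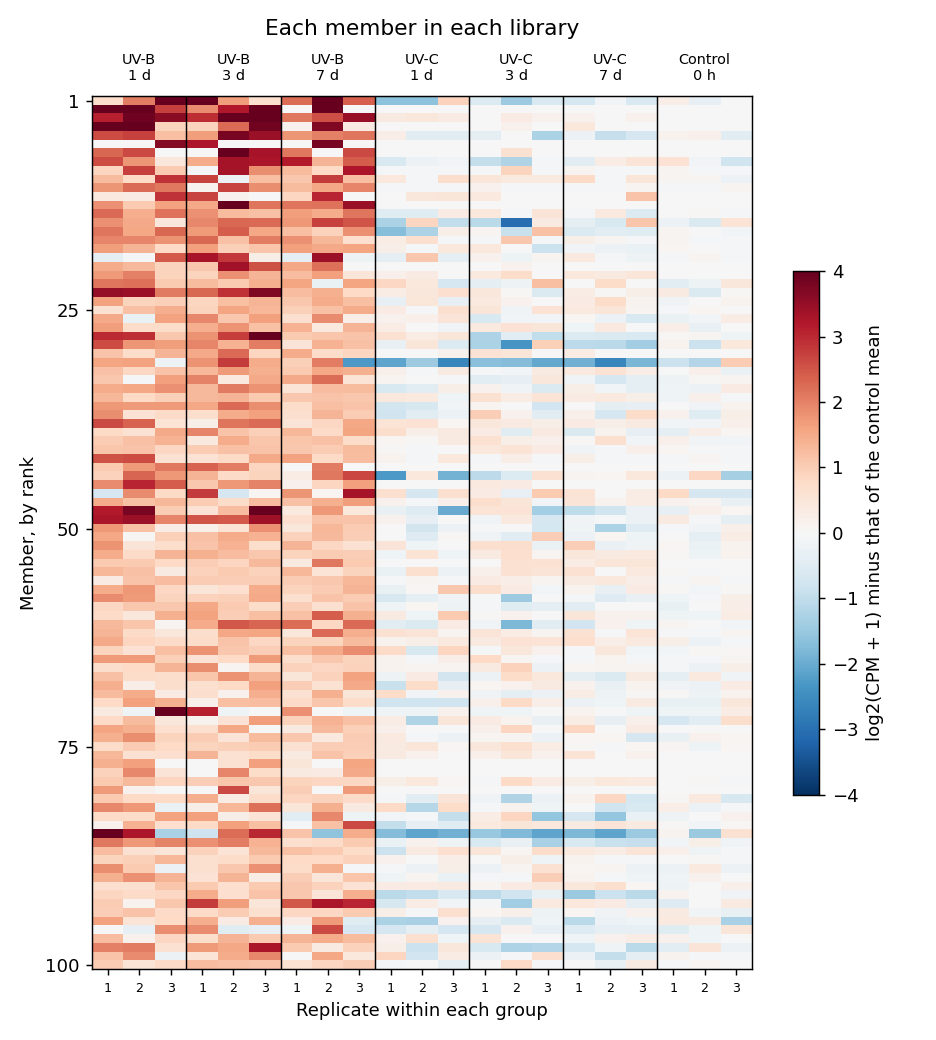
The 100 members (rows, by rank) in the 21 libraries (columns), as log2(CPM + 1) minus that of the control mean. UV-B libraries stand at the left, UV-C in the middle and the control at the right; red cells (higher) fill the UV-B block unevenly, and the rows of ranks 31 and 85 are blue (lower) across UV-C.

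Because the rule works on means of 3 libraries, the separation of the groups library by library differed between members. In 60 members all 9 UV-B libraries were above all 3 control libraries, against 6.61% of the gene models with a count. In 27 members all 9 UV-B libraries were above all 9 UV-C libraries, against 0.485% of the gene models with a count, and the same 27 were above all 12 other libraries. The rule used these contrasts, so the counts describe the members and test nothing. Conversely, 17 members had 0 counts in at least 1 UV-B library. In 2 members (ranks 28 and 71) a single library held 52.2% and 56.9% of the counts of the 9 UV-B libraries.

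Rank 1 (PITA_000059779-RA) had the largest smallest D, 3.13. It measured 4.07, 11.8 and 114 CPM at UV-B 1 d, 66.1, 8.94 and 3.84 CPM at UV-B 3 d and 13.7, 69.9 and 15.3 CPM at UV-B 7 d. At UV-C it measured 0, 0 and 4.87 CPM at 1 d, 1.13, 0.134 and 1.06 CPM at 3 d and 0.935, 1.91 and 1.06 CPM at 7 d, against 2.79, 1.48 and 2.11 CPM in the control. All 9 UV-B libraries were above the control, but 1 library of each UV-B group was several times higher than the other pair, and the UV-B and UV-C values overlapped. Its mean was 20.4-fold the control at UV-B 1 d, 12.4-fold at 3 d and 15.5-fold at 7 d, with an SD over the libraries of UV-B 1 d (61.5 CPM, n = 3) larger than their mean of 43.4 CPM.

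Rank 2 (PITA_000077372-RA) was not detected outside UV-B, with 0 counts in all 9 UV-C and all 3 control libraries. At UV-B it measured 17.3, 20.6 and 5.65 CPM at 1 d, 2.69, 8.27 and 19.9 CPM at 3 d, and 0, 21.9 and 0 CPM at 7 d. Its 7 d mean thus came from a single library. Against the floor of 3 counts over the control group it was at least 111-fold higher at UV-B 1 d, 78.9-fold at 3 d and 56.1-fold at 7 d.

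Rank 3 was even by comparison: 7.69, 13.7 and 11.3 CPM at UV-B 1 d, 6.80, 16.7 and 18.8 CPM at UV-B 3 d and 3.29, 4.97 and 10.1 CPM at UV-B 7 d. The 9 UV-C libraries held 12 counts together, none of them above 0.375 CPM, and the control libraries held 0. All 9 UV-B libraries were above all others, and the means were at least 83.8-fold, 108-fold and 47.1-fold the control floor at 1, 3 and 7 d.

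Rank 4 measured 20.5, 20.9 and 0.869 CPM at UV-B 1 d, 0.851, 3.79 and 13.7 CPM at UV-B 3 d and 0.137, 12.0 and 0.267 CPM at UV-B 7 d. It was at 0 in the control and held 4 counts over the 9 UV-C libraries. Its means were at least 108-fold, 46.8-fold and 31.7-fold the control floor at UV-B 1, 3 and 7 d, and in each UV-B group some libraries were near 0.

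Rank 5 measured 21.6, 23.6 and 7.38 CPM at UV-B 1 d, 10.8, 50.4 and 39.6 CPM at UV-B 3 d and 11.4, 13.8 and 15.3 CPM at UV-B 7 d. UV-C libraries ran from 0.528 to 3.44 CPM with a median of 1.75 CPM, and the control libraries measured 3.06, 3.22 and 1.74 CPM. No UV-B library overlapped with UV-C or the control, and the means were 6.55-fold, 12.6-fold and 5.06-fold the control at UV-B 1, 3 and 7 d.

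Rank 6 was detected in only 3 of the 21 libraries, 1 in each UV-B group: 11.7 CPM in UV-B 1 d replicate 3, 8.50 CPM in UV-B 3 d replicate 1 and 12.8 CPM in UV-B 7 d replicate 2. It had 0 counts in the other 18 libraries. The group means qualified it for the list although 6 of the 9 UV-B libraries were at 0.

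The 3 most abundant members were higher under UV-B by smaller factors than ranks 1 to 6. Rank 36 was the most abundant member in UV-B and also the highest in the control. It measured 750.2, 737 and 737 CPM at UV-B 1 d, 653, 1075 and 822 CPM at UV-B 3 d, and 377, 523 and 493 CPM at UV-B 7 d. UV-C libraries ran from 131 to 241 CPM with a median of 177 CPM, and the control libraries measured 221, 204 and 250.1 CPM. Every UV-B library was above every other library, and the means were 3.30-fold, 3.78-fold and 2.06-fold the control at UV-B 1, 3 and 7 d.

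Rank 29 measured 843, 473 and 441 CPM at UV-B 1 d, 539, 362 and 569 CPM at UV-B 3 d and 197, 362 and 308 CPM at UV-B 7 d. UV-C libraries spread from 26.2 to 264 CPM with a median of 66.5 CPM, and the control libraries measured 152, 75.9 and 184 CPM. All UV-B libraries were above the control, but UV-B 7 d overlapped with UV-C, and its UV-C 3 d libraries differed by a factor of more than 10 between the highest and the lowest.

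Rank 88 measured 233, 243 and 318 CPM at UV-B 1 d, 199, 212 and 259 CPM at UV-B 3 d and 221, 219.8 and 242 CPM at UV-B 7 d. UV-C libraries ran from 113 to 150.4 CPM and the control libraries measured 129, 131 and 119 CPM. Every UV-B library was above every UV-C and control library, while UV-C and the control overlapped, and the means were 2.10-fold, 1.77-fold and 1.81-fold the control at UV-B 1, 3 and 7 d.

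At the end of the list, rank 99 measured 7.84, 14.0 and 2.46 CPM at UV-B 1 d, 4.96, 10.3 and 14.2 CPM at UV-B 3 d and 3.02, 10.8 and 4.40 CPM at UV-B 7 d, against 3.46, 2.82 and 2.85 CPM in the control. Its UV-C libraries ran from 1.09 to 6.30 CPM, and UV-B overlapped with both. Rank 100 measured 14.3, 10.1 and 11.7 CPM at UV-B 1 d, 16.9, 15.9 and 15.6 CPM at UV-B 3 d and 10.6, 12.6 and 14.0 CPM at UV-B 7 d, against 6.12, 6.98 and 6.45 CPM in the control. Its UV-C libraries ran from 4.74 to 12.0 CPM, so it cleared the control in every UV-B library but not UV-C.

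Below the control in UV-C were 3 members, with D under -0.5 in all 3 UV-C groups (ranks 31, 85 and 92), against 1.76% of the gene models with a count. They were singled out after their values were seen. Rank 92 measured 9.35, 8.77 and 9.12 CPM at UV-B 1 d, 15.0, 8.13 and 11.8 CPM at UV-B 3 d and 11.1, 7.26 and 14.8 CPM at UV-B 7 d. In UV-C it ran from 1.05 to 3.70 CPM with a median of 1.88 CPM, against 5.32, 4.69 and 4.22 CPM in the control, so its 3 kinds of library did not overlap. Rank 31 averaged 14.7, 29.2 and 13.3 CPM at UV-B 1, 3 and 7 d, 0.735, 0.956 and 0.626 CPM at UV-C 1, 3 and 7 d and 5.86 CPM in the control. Its control mean rested on replicate 3, with 12.8 CPM beside 2.79 and 2.01 CPM, and UV-B 7 d replicate 3 was at 0.40 CPM. Rank 85 ran from 0 to 0.529 CPM in UV-C, against 3.72, 0.536 and 5.58 CPM in the control, and its UV-B libraries spread from 0.403 to 77.5 CPM.

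Summed over the members, the share of all counts of a library averaged 0.341 ± 0.037% at UV-B 1 d, 0.348 ± 0.034% at UV-B 3 d and 0.261 ± 0.044% at UV-B 7 d (SD, n = 3 each). It averaged 0.0974 ± 0.0092% at UV-C 1 d, 0.101 ± 0.0085% at UV-C 3 d and 0.0933 ± 0.0061% at UV-C 7 d, and 0.104 ± 0.0098% in the control. The 9 UV-B libraries, at 0.210 to 0.383%, all lay above the 12 others, at 0.0869 to 0.114%, as the choice of members fixes. Rank 36 supplied 21.7% of the members' UV-B counts, the 5 most abundant members 55.4% and the 10 most abundant 69.6%. In whole foliage, fewer cells of a type and less RNA per cell cannot be told apart.

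The summed share at UV-B 7 d differed from that at UV-B 3 d by -0.0876 percentage points and from that at UV-B 1 d by -0.0799, without overlap in either case. Without rank 36 these differences were -0.0490 and -0.0522 percentage points. Each full difference had p = 0.1 in the exact two-sided permutation test of 3 against 3 libraries, the smallest p such a test can give, and 0.3 after Benjamini-Hochberg adjustment over the 6 steps within a band. The other 4 steps had exact p-values from 0.2 to 1 before adjustment.

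**Figure D3:**
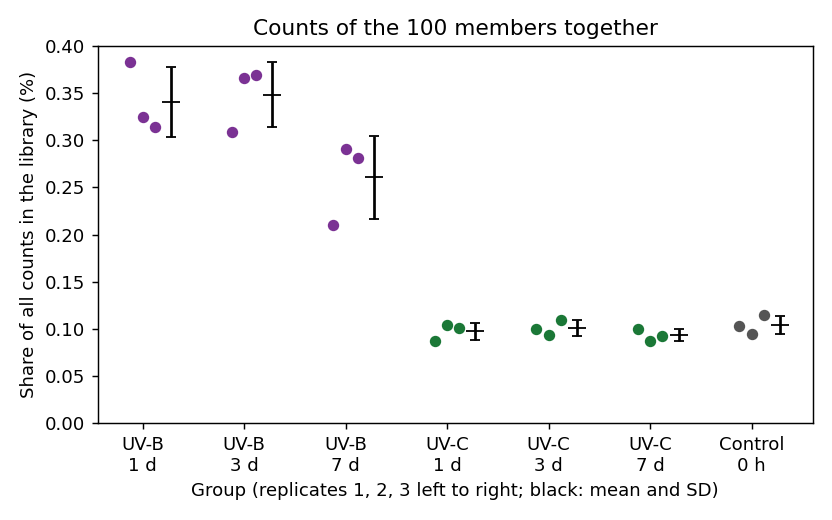
Share of all counts of a library that fell on the 100 members (y axis, %), for the 3 libraries of each group (points) with mean and SD (black). UV-B libraries lie between 0.210 and 0.383%, UV-C and control libraries between 0.0869 and 0.114%, and the UV-B 7 d libraries lie under those of UV-B 1 and 3 d.

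The steps between durations were tested gene by gene with edgeR's quasi-likelihood test over 18265 genes, with calls made where the p adjusted by Benjamini-Hochberg was under 0.05. Of the 100 members, 96 passed the filter on low counts. Ranks 54, 56, 66 and 76, with 56 to 86 counts over the 9 UV-B libraries, did not. From UV-B 1 d to 3 d no member was called, against 4.58% of all genes, with 5 members at an unadjusted p under 0.05 (20.4% of all genes). DESeq2 and limma-voom also called 0 members there, against 8.56% and 2.81% of all genes. From UV-B 3 d to 7 d no member was called, against 0.0657% of all genes, with 11 members at an unadjusted p under 0.05 (14.7% of all genes). In that step DESeq2 called 5 members and limma-voom 2, all lower at 7 d, against 2.74% and 0.312% of all genes. When UV-B 3 d replicate 1 was left out edgeR called 4, all lower, against 1.72% of all genes.

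From UV-B 1 d to 7 d, 4 members were called, 3 lower and 1 higher at 7 d, against 15.1% of all genes. Fitted changes over the 96 members had a median of -0.13 on the log2 scale (0.01 over all genes tested), and 58 were below 0. Without UV-B 7 d replicate 2 the count was 7, of which 6 were lower, against 12.3% of all genes.

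The 3 members that fell stayed above the control at 7 d by their means, as the rule requires. Rank 49 (PITA_000055390-RA) measured 5.49, 8.07 and 8.01 CPM at UV-B 7 d, against 38.3, 42.8 and 14.9 CPM at UV-B 1 d. It measured 22.7, 21.3 and 42.0 CPM at UV-B 3 d, between 1.59 and 4.43 CPM in UV-C, and 4.26, 2.95 and 2.11 CPM in the control. The 7 d libraries lay below those of 1 d and 3 d and above those of UV-C and the control. The log2 fold change from 1 d to 7 d was -2.14 (SE 0.39, edgeR adjusted p = 0.0027).

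Rank 23 (PITAhm_000948-RA) measured 7.14, 8.34 and 5.07 CPM at UV-B 7 d, against 38.6, 36.8 and 13.6 CPM at UV-B 1 d. At UV-B 3 d it measured 15.9, 25.2 and 45.1 CPM, in UV-C between 1.32 and 4.47 CPM, and in the control 3.46, 1.34 and 2.60 CPM. Its 7 d libraries too lay between those of the earlier UV-B durations and those of UV-C and the control. The log2 fold change was -2.09 (SE 0.43, edgeR adjusted p = 0.0051).

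Rank 86 measured 84.0, 91.3 and 109.9 CPM at UV-B 7 d, against 235, 178 and 212 CPM at UV-B 1 d. It measured 191, 224 and 141 CPM at UV-B 3 d, between 21.3 and 60.4 CPM in UV-C and 49.0, 62.5 and 48.2 CPM in the control. No UV-B library overlapped with UV-C or the control, and the log2 fold change from 1 d to 7 d was -1.11 (SE 0.22, edgeR adjusted p = 0.0039).

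Rank 93 was the called member that rose. It measured 71.9, 125 and 108 CPM at UV-B 7 d, against 25.6, 13.5 and 26.6 CPM at UV-B 1 d, and 89.0, 40.8 and 17.2 CPM at UV-B 3 d. UV-C libraries ran from 4.03 to 16.6 CPM and the control libraries measured 8.11, 12.3 and 15.7 CPM. UV-B 1 d replicate 2 lay within the control and UV-C values, and UV-B 3 d spanned the range between 1 d and 7 d. The log2 fold change was 2.23 (SE 0.52, edgeR adjusted p = 0.0095), and the adjusted p was 0.0603 without UV-B 1 d replicate 2.

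Within UV-C the 96 members are not all testable. Ranks 2, 6, 13, 43, 77, 78 and 80 had 0 counts in all 9 UV-C libraries and could not be called, which leaves 89, and many of these passed the filter through their UV-B libraries. In fits of only the UV-C groups compared, 50 to 54 members passed it. In the fit of all groups, 1 member was called from 1 d to 3 d, against 6.24% of all genes. From 3 d to 7 d no member was called, against 8.54% of all genes, with 3 members at an unadjusted p under 0.05 (27.5% of all genes). DESeq2 and limma-voom also called 0 members, against 14.9% and 5.63% of all genes. From 1 d to 7 d 1 member was called, against 8.14% of all genes. Both calls were rank 70, higher at the later duration, which did not pass the filter when only the UV-C groups were fitted. It measured 0.971, 2.01 and 1.06 CPM at UV-C 3 d and 0.467, 0.545 and 1.19 CPM at UV-C 7 d, against 0 counts in all 3 libraries of UV-C 1 d. Against the floor of 3 counts over that group, 0.133 CPM, it was at least 10.1-fold higher at 3 d and 5.52-fold higher at 7 d (edgeR adjusted p = 0.0073 and 0.0102). The UV-C 3 d call was lost without UV-C 1 d replicate 1, at an adjusted p of 0.0542, and limma-voom gave an adjusted p of 0.108 for 3 d and 0.0697 for 7 d.

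Fits of only the UV-C groups compared called 0 of 54 members from 1 d to 3 d (0.00626% of all genes), 0 of 53 from 3 d to 7 d (0.0% of all genes) and 1 of 50 from 1 d to 7 d (6.01% of all genes). At an unadjusted p under 0.05 these fits had 3, 1 and 5 members. Of all genes, 2399 of 15977, 3519 of 15720 and 4104 of 15816 were under that value. The member called was rank 28, lower at 7 d, with 1.40, 1.36 and 1.32 CPM at UV-C 7 d, against 4.44, 3.38 and 3.95 CPM at UV-C 1 d. Its libraries of these durations did not overlap. The log2 fold change was -1.40 (SE 0.30, edgeR adjusted p = 0.0438), and in the fit of all groups -1.38 (SE 0.75, edgeR adjusted p = 0.271), so the call rests on which groups are fitted.

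The change from 1 d to 7 d under UV-B was called different from that under UV-C in 1 member, again rank 70, against 2.16% of all genes. Rank 70 measured 1.92, 2.69 and 1.87 CPM at UV-B 7 d, against 1.96, 4.32 and 3.62 CPM at UV-B 1 d, while in UV-C it was above 0 at 7 d and at 0 at 1 d. The edgeR adjusted p was 0.0267, and it was over 0.05 in several other settings. Rank 70 entered this test through its UV-B libraries, since it did not pass the filter with only the UV-C groups fitted. Of the 88 other tested members with a UV-C count none was called, and 7 had an unadjusted p under 0.05 (17.9% of all genes), while the 7 members with 0 UV-C counts had no UV-C time course to compare. DESeq2 gave rank 70 no adjusted p in this comparison. It called 2 other members, both lower, and limma-voom called 0, against 5.87% and 1.97% of all genes.

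**Figure D4:**
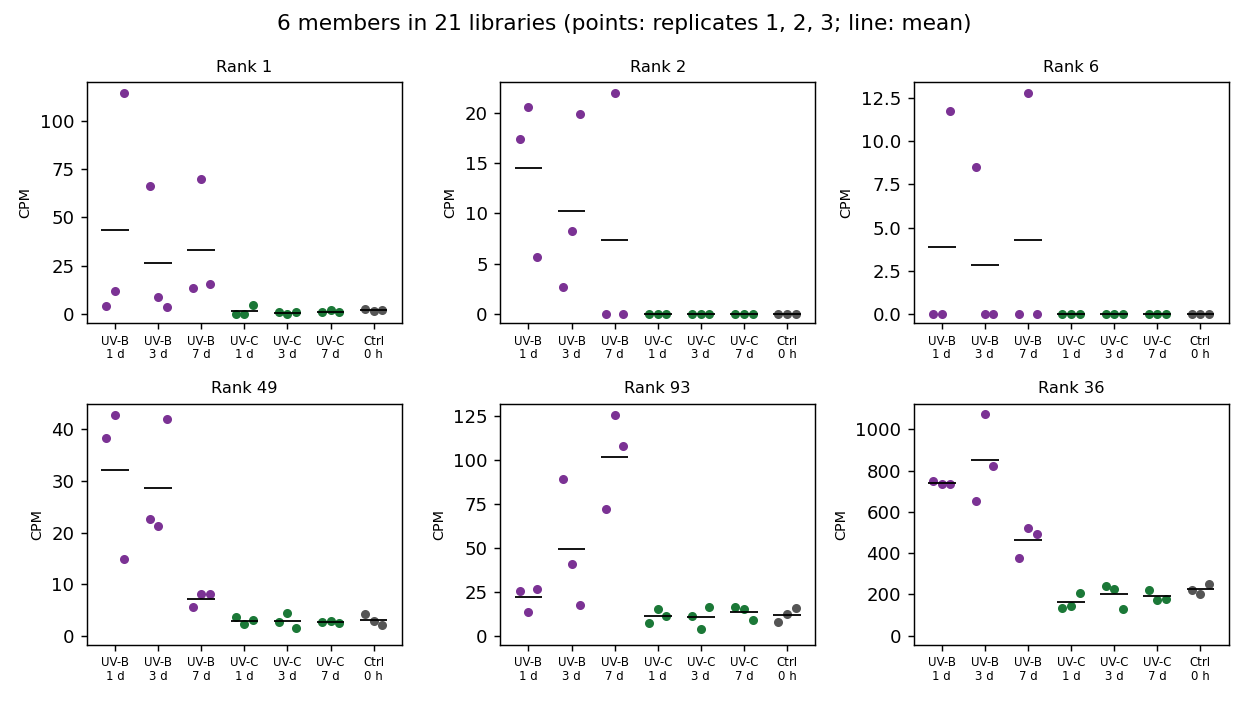
CPM of 6 members in the 21 libraries (points for replicates 1, 2 and 3 from left to right, line for the mean), UV-B in purple, UV-C in green and the control in grey. Ranks 1, 2 and 6 have large gaps between UV-B libraries of 1 group, rank 49 is lower and rank 93 higher at UV-B 7 d than at UV-B 1 d, and rank 36 is high in every UV-B library.

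The uneven values of ranks 1, 2, 4 and 6 followed a pattern over the libraries. Among members with a mean of 5 to 50 CPM in a group, the median coefficient of variation over the 3 libraries was 43.4%, 40.8% and 28.1% for the UV-B groups of 1, 3 and 7 d, against 19.6%, 17.6% and 15.9% over all gene models at such levels. At UV-C 1, 3 and 7 d it was 21.5%, 27.0% and 15.3% for the members, against 17.4%, 20.7% and 14.2%, and in the control 16.9%, against 12.2%. The rule used these libraries, so the larger spread is a description of the members.

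The deviations from the group mean went together in UV-B 1 d replicate 3 and UV-B 3 d replicate 1. Over the 100 members they correlated with r = 0.81, the highest of 189 pairs of libraries from different groups, and over 11827 other genes with a mean of at least 5 CPM with r = 0.31. The next highest pairs, UV-B 3 d replicate 3 with UV-B 1 d replicates 2 and 1, had r = 0.60 each over the members. The lowest r over the members was -0.76, for UV-B 1 d replicate 3 with UV-B 3 d replicate 3 (-0.34 over the other genes). Deviations in a group of 3 sum to 0, so these pairs are not independent of the first, and genes are not independent replicates. The members were not held to a mean of 5 CPM, so they and the other genes are unlike in level. The rule used the means of these UV-B groups, so the r over the members is a description and tests nothing. Over the other genes the highest r was 0.57, for UV-B 3 d replicate 1 with UV-C 3 d replicate 3.

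**Figure D5:**
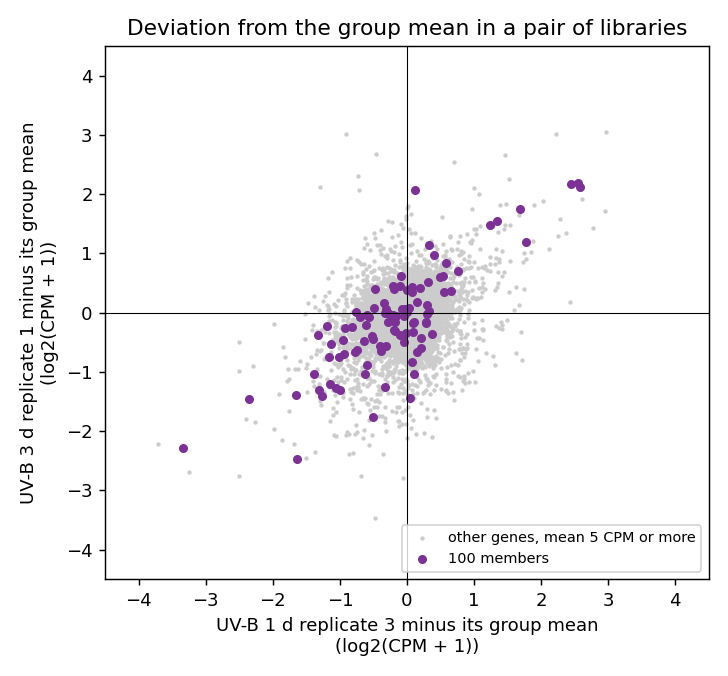
Deviation from the group mean of log2(CPM + 1) in UV-B 1 d replicate 3 (x axis) and UV-B 3 d replicate 1 (y axis). Points are the 100 members at any level (purple) and 11827 other genes with a mean of at least 5 CPM (grey). The members lie along a rising diagonal (r = 0.81), while the other genes form a rounder cloud (r = 0.31).

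By direction, 33 members were lowest of their group in both libraries, against 8.19% of the gene models with a count, and 17 were highest in both, against 9.6%. In opposite directions were 3 and 4 members. Of all 100 members, 16 were below the mean of the other pair by at least 2-fold in both groups, and 7 were above it by at least 2-fold in both (ranks 1, 6, 10, 12, 19, 71 and 96). The share of all gene models with such 2-fold differences is not given, so these counts are not set against it. These subsets were formed after the values were seen, and no test was made of them. The members and the gene models with a count are unlike in detection. UV-B 1 d replicate 3 detected 96 of the 100 members and 24629 of the 39403 gene models. UV-B 3 d replicate 1 detected 95 members and 24884 gene models. The shares over all gene models are therefore not at like levels.

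The members highest in both had a median level of 6.08 CPM in UV-B 1 d replicate 3 and 6.66 CPM in UV-B 3 d replicate 1, beside 1.06 and 1.05 CPM in the other UV-B 1 d libraries and 1.22 and 1.59 CPM in the other UV-B 3 d libraries. At UV-B 7 d they had 1.51, 6.59 and 1.33 CPM, so replicate 2 stood out there. Of the 17, 12 were highest in it and 2 lowest. This was not particular to them: of the 33 members lowest in both, 16 were highest in it and 10 lowest. Of all 100 members, 47 were highest in it, and the share over all gene models is not given. The medians of the members highest in both were 0.25 to 0.584 CPM in the UV-C libraries and 0.266 to 0.402 CPM in the control.

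The members lowest in both had a median level of 2.46 CPM in UV-B 1 d replicate 3 and 3.26 CPM in UV-B 3 d replicate 1, beside 8.15 and 7.46 CPM in the other UV-B 1 d libraries and 8.27 and 13.7 CPM in the other UV-B 3 d libraries. Both of the lower medians were above those of the control libraries, at 1.34 to 1.74 CPM. Of the 27 members separated from all other libraries, 10 were lowest in both and 0 were highest in both. The labels give no difference between this pair of libraries and the others of their groups, and what sets them apart was not tested.

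Without both libraries the rule still chose 82 of the 100 members, while 8 members had a smallest D under 0.5. Leaving out UV-B 7 d replicate 2 alone put the smallest D of 15 members under 0.5, the highest such count of the 21 libraries. The UV-C ceiling depended on single libraries too. Leaving out UV-C 3 d replicate 3 put 14 members at or over it, and leaving out UV-C 3 d replicate 1 or control replicate 1 put 11 there. Without both libraries edgeR called 0 members from UV-B 1 d to 3 d, 4 from 3 d to 7 d and 8 from 1 d to 7 d, of which 7 were lower at 7 d. Of all genes, 1.78%, 1.64% and 11.3% were called in these steps, and 93 members were tested. In that fit the earlier UV-B groups have 2 libraries each.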

How the data were processed

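Messenger RNA of foliage was isolated on poly(A) beads and sequenced as 150 bp pairs on an Illumina HiSeq, and adapters and poor bases were removed by Trimmomatic 0.36, per the labels' protocols. Per the submitters' processing notes, reads were then counted by featureCounts 1.5.3. The sources used here do not give the aligner, reference, strand setting or handling of reads that match several places, and reads of near-identical gene copies may have been divided or dropped. The authors deposited raw counts for 84525 gene models in 21 libraries, without normalization.

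Groups and replicate numbers came from the sample titles. The 4 h groups named in the labels' treatment protocol are not analysed here. Members were found by the rule given above with the raw column totals as library sizes. The members and the lists were chosen with earlier results of these data known. Step tests used edgeR 4.0.16 (two-sided quasi-likelihood F-test; R 4.3.3) on all 21 libraries with 1 mean per group, TMM factors (0.928 to 1.07) and filterByExpr, with Benjamini-Hochberg adjustment over 18265 genes. Standard errors are the log2 fold change over the square root of F. Alternatives used DESeq2 1.42.0 and limma 3.58.1, other scalings and filters, and left out libraries. The edgeR fit for UV-B 7 d against 1 d was run on simulated counts with known changes before use.

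Members described singly were ranks 1 to 6, the 3 most abundant in UV-B, the highest in the control, those called in a step, and the list's ends; identifiers were printed for ranks 1 and 2 and for the 2 with the largest called fall. Lists for UV-B signalling, flavonoid synthesis, phenylpropanoids, DNA repair, antioxidants, defence, heat shock, photosynthesis, hormones and needle cell types could not be matched to identifiers, so none was counted. Replicates of 1 group always differed by more than sampling noise, with a chi-square of 4.13 to 68.1 per degree of freedom.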

Additional observations from a re-analysis of the deposited data

Results flagged for a closer look

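In the fit of all groups, the change from 1 d to 7 d was called different between the bands for rank 70. The edgeR adjusted p of the interaction was 0.0267. Under UV-B it had 1.92, 2.69 and 1.87 CPM at 7 d and 1.96, 4.32 and 3.62 CPM at 1 d. Under UV-C it had 0.467, 0.545 and 1.19 CPM at 7 d and 0 counts at 1 d. The result rests on the 3 UV-C 1 d libraries at 0, and its fitted fold change depends on the prior count.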

How the results depend on the processing

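Of the 7 step tests, the count of members called stayed within 1.5 times under DESeq2 size factors, upper quartile factors and a filter on 1 CPM in 3 libraries. With no filter, 5 members were called from UV-B 3 d to 7 d, 7 from UV-B 1 d to 7 d and 2 in the difference of the bands. Of 39403 genes, 176, 2450 and 215 were called in these tests. The DESeq2 Wald test called 5 from UV-B 3 d to 7 d and 2 in the difference of the bands, where it gave rank 70 no adjusted p. Of 18265 genes it called 500 and 1072. With limma-voom, 2 were called from UV-B 3 d to 7 d and 0 from UV-C 1 d to 3 d. It called 0 from UV-C 1 d to 7 d and 0 in the difference of the bands. Of 18265 genes, 57, 86, 1723 and 360 were called in these tests. A fit of only the groups compared, with 50 to 54 members tested in UV-C, called 0 from UV-C 1 d to 3 d. It also called 0 in the difference of the bands. Of all genes, that fit called 1 of 15977 and 39 of 17349. From UV-C 1 d to 7 d it called 1, lower (rank 28), against 6.01% of all genes. This stood in place of rank 70, which was higher and did not pass the filter there. UV-B 1 d replicate 3 and UV-B 3 d replicate 1 were also left out together, chosen after seeing the data. Then 4 members were called from UV-B 3 d to 7 d, 8 from UV-B 1 d to 7 d and 2 in the difference of the bands. Of 18844 genes, 309, 2124 and 129 were called in these tests. Apart from that filter, the cause was not tested. Leaving out each library in turn gave 0 to 0 members called from UV-B 1 d to 3 d. Brackets hold all genes called in the fit named. From UV-B 3 d to 7 d the count was 0 to 4, with 4 without UV-B 3 d replicate 1 (325 of 18927). From UV-B 1 d to 7 d it was 3 to 7, with 7 without UV-B 7 d replicate 2 (2319 of 18912). From UV-C 1 d to 3 d it was 0 to 2. It was 2 without UV-C 1 d replicate 2 (773 of 18864), UV-C 1 d replicate 3 (471 of 18925) or UV-C 3 d replicate 3 (2534 of 18932). From UV-C 3 d to 7 d it was 0 to 1, with 1 without UV-C 3 d replicate 3 (3578 of 18932). From UV-C 1 d to 7 d it was 1 to 3, with 3 without UV-C 1 d replicate 2 (894 of 18864). In the difference of the bands it was 0 to 2, with 2 without UV-C 1 d replicate 2 (283 of 18864) or UV-C 1 d replicate 3 (369 of 18925). For the difference of the bands it was 0 without UV-B 1 d replicate 2, UV-B 7 d replicate 3, UV-C 1 d replicate 1 or UV-C 7 d replicate 3. Those fits called 161 of 18843, 51 of 18911, 54 of 18887 and 236 of 18943 genes. From UV-C 1 d to 3 d the count of members was 0 without UV-C 1 d replicate 1, where 42 of 18887 genes were called. Over its alternatives, the adjusted p of the difference of the bands for rank 70 that passed 0.05 ran from 0.051 to 0.104. The fold changes of ranks 23, 49 and 86 kept direction and call in every setting, from -2.49 to -1.02 when libraries were left out. The rule found 59 of the 100 members again with a pseudocount of 0.5 CPM, 64 with 2 CPM, 53 with group medians, 90 with TMM-scaled library sizes and 74 to 98 when 1 library was left out. With the replicate number as a block, 4 members were called from UV-B 1 d to 7 d (2767 of 18265), and no count of members changed in any step. The labels do not say what a replicate number stands for. Same-numbered deviations correlated between -0.46 and 0.49, 15 of 63 pairs were over 0.1, and 6 of 21 libraries were closest to their own number. These values show no pairing by number over all groups, and a pairing of some groups was not tested. Members of few counts are measured coarsely, the lowest with 56 counts over the 9 UV-B libraries.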
